A study of Mus musculus with 6 samples.

Results

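The cytosolic ribosomal protein genes encode the protein part of the ribosomes that work in the cytoplasm. They were chosen by symbol, as genes named Rpl or Rps followed by a number and at most the letters a, x, l, y or p, together with the acidic stalk genes Rplp0, Rplp1 and Rplp2 and the gene Rpsa, with pseudogenes left out. This rule found 81 of the 22063 genes in the table, of which 31 encode proteins of the small subunit and 50 proteins of the large subunit. The symbol rule itself reads no measured value. A few ribosomal genes with other symbol endings, such as Rps3a1 and Rpl22l1, fall outside it.

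RNA was sequenced from 6 bladder tumours of female mice, each a tumour that had formed spontaneously in an immunocompetent animal and was then treated with an antibody against PD-1, an inhibitory receptor on T cells. The labels call 3 tumours non-responsive and 3 responsive, so both groups carried the same treatment, and no untreated tumour was analysed here. The labels give no strain, age, dose or time of sampling. The labels do not say that the 3 tumours of a group came from separate animals, so a p-value here reflects only the spread between samples, part of which may be technical.

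A cytosolic ribosome is built from a small subunit, which reads the messenger RNA, and a large subunit, which joins the amino acids. Each contains ribosomal RNA and one copy of most ribosomal proteins, so the proteins are needed in nearly equal amounts. Ribosomal protein mRNAs are among the most abundant in growing mammalian cells, and many begin with a 5′ terminal oligopyrimidine (TOP) tract, a C followed by an unbroken stretch of pyrimidines, through which the kinase mTOR and the RNA-binding protein Larp1 control their translation and stability.

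The start sites of 6 genes are shown because they span the range of start sequences among the genes described here. Each window covers 40 bases before and 20 bases from an annotated start in RefSeq, assembly GRCm38.p6, on the strand of the gene. At the start site, capitals mark a C followed by at least 4 pyrimidines, and further upstream they mark CCGGAAG, a sequence of the kind bound by ETS-family factors such as Gabpa.
Rps6, chr4:86857348-86857407, minus strand: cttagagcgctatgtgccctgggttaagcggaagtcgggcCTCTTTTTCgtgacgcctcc
Rps21, chr2:180257339-180257398, plus strand: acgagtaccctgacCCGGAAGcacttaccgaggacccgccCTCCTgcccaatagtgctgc
Rplp2, chr7:141447611-141447670, plus strand: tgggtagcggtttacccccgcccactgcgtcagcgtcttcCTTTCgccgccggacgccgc
Rpl35, chr2:39005112-39005171, minus strand: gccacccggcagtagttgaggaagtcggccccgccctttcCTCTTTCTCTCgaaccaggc
Rps28, chr17:33824543-33824602, minus strand: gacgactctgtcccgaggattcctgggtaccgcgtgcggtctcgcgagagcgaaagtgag
Rpl23, chr11:97782420-97782479, minus strand: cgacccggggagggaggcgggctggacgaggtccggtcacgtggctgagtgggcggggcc

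Rps6, Rps21, Rplp2 and Rpl35 have the tract exactly at the annotated start shown, and Rps28 and Rpl23 have none there in these windows. A second annotated start of Rps21, with the window chr2:180257409-180257468, does not have the tract. Rps28 had the lowest and Rpl23 the highest difference between the groups, as described further on. Of the 81 genes, 61 had an entry in the RefSeq promoter table, with 73 start windows. Here and below, a gene was counted when any of its annotated starts had the feature. By that count 13 of the 61 (21.3%) began with the tract, against 813 of 27025 genes (3.01%) in the whole table. The 13 were Rpl14, Rpl15, Rpl28, Rpl35, Rpl35a, Rpl38, Rplp2, Rps10, Rps15a, Rps18, Rps21, Rps27 and Rps6. A run of at least 7 pyrimidines anywhere in the 50 bases from the start, a looser criterion chosen after the windows were seen, was present in 46 of 61 genes (75.4%) against 30.7% of all genes. CCGGAAG or its reverse complement CTTCCGG occurred between 250 bases before and 50 bases from the start in 25 of 61 genes (41%), against 9.93% of all genes. Rps6, Rps21, Rplp2 and Rpl35 are among the 25, and Rps28 and Rpl23 are not. Only the match of Rps21 falls within the bases printed above. In the same window, on either strand, GGGCGG, the core of a GC box, was found in 37 genes (60.7%, against 38.2%), AAGATGG, the core of a Yy1 motif, in 9 (14.8%, against 7.28%) and TATAAA in 6 (9.84%, against 15.7%). CCGGAAG and AAGATGG can share the letters AAG, so 1 stretch can hold both, and a match is a description of the sequence, not evidence of binding.

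Summed over the 81 genes, ribosomal protein mRNAs took 9.45% of the counts in non-responsive tumour 1, 5.54% in tumour 2 and 6.67% in tumour 3. They took 9.06%, 10.1% and 8.11% in responsive tumours 1, 2 and 3. Non-responsive tumours 2 and 3 thus lay below every responsive tumour, and non-responsive tumour 1 lay within the responsive range. The means were 7.22% ± 2.01 (SD, n = 3) in the non-responsive group and 9.10% ± 1.02 (SD, n = 3) in the responsive group, and the groups overlapped. The counting error was small beside this spread, since the exact Clopper-Pearson 95% interval of each share reached at most 0.0146 percentage points to either side and covers counting error only.

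**Figure D1:**
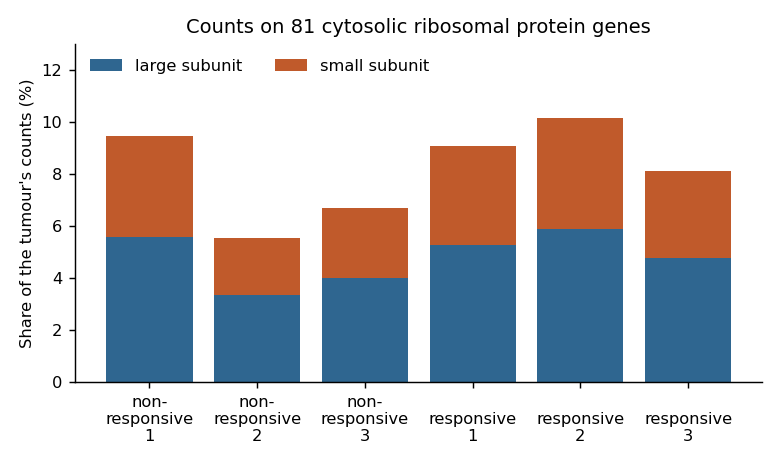
Share of each tumour's counts, in percent, on the 81 cytosolic ribosomal protein genes, 1 bar per tumour with large-subunit genes below and small-subunit genes above. Non-responsive tumours 2 and 3 have the lowest bars (5.54% and 6.67%), and non-responsive tumour 1 (9.45%) stands among the responsive tumours (8.11 to 10.1%).

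Both subunits showed the same order of tumours. Small-subunit genes took 3.87%, 2.20% and 2.66% of counts in non-responsive tumours 1, 2 and 3, and 3.78%, 4.27% and 3.35% in the responsive tumours. Large-subunit genes took 5.58%, 3.34% and 4.02% in the non-responsive group and 5.28%, 5.88% and 4.76% in the responsive tumours. On the FPKM scale, which divides by transcript length, the genes made up 19.5%, 13.2% and 15.3% of the summed FPKM in the non-responsive group and 18.3%, 20.6% and 17.5% in the responsive tumours. Each of these sums placed non-responsive tumours 2 and 3 lowest.

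Of the 81 genes, 78 passed the filter on low counts: all 31 of the small subunit and 47 of the large. Each of the 78 had at least 968 counts in every tumour, so none passed through 1 group alone. The 3 that did not pass were paralogs with restricted expression. Rpl3l, the striated muscle form of Rpl3, had 1, 1 and 4 counts in the non-responsive group and 6, 3 and 5 in the responsive tumours. Rpl39l, a testis form of Rpl39, had 1, 0 and 3 counts against 3, 1 and 0. Rpl10l, the testis form of Rpl10, had no count in any tumour, which allows up to 0.124 to 0.199 CPM (3 counts scaled by the library total). At these counts no difference was detectable. The summed level of 15 skeletal muscle markers was 14.96 to 32.8 CPM in the non-responsive group and 43.4 to 90.5 CPM in the responsive tumours, and 7 of 10 testis germ cell markers had no count in any tumour.

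By level per transcript length, the 78 genes ranged from a median of 203 FPKM over the 6 tumours for Rps27l to 4016 FPKM for Rpl13a, a large-subunit protein also known for a role in translational silencing. Their median was 1248 FPKM, against 8.19 FPKM over all genes tested. Below Rpl13a came the small-subunit gene Rps24 at 3296 FPKM, the large-subunit gene Rpl23a at 2931 FPKM and Rplp0, the base of the ribosomal stalk, at 2926 FPKM. At the low end, above Rps27l, stood Rps20 at 217 FPKM, Rpl36al, a paralog of Rpl36a, at 303 FPKM and Rpl39 at 365 FPKM. Neighbours in this order crossed between tumours in each pair among the top 4 genes, between Rps27l and Rps20 and between Rpl36al and Rpl39, so those pairs are not separated. Rps20 was below Rpl36al in all 6 tumours. The low level of Rps20 rests on a transcript length of 3706 bases implied by its count and FPKM, the longest of the 78, where the median was 712 bases and the shortest 345 bases, for Rps27.

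**Figure D2:**
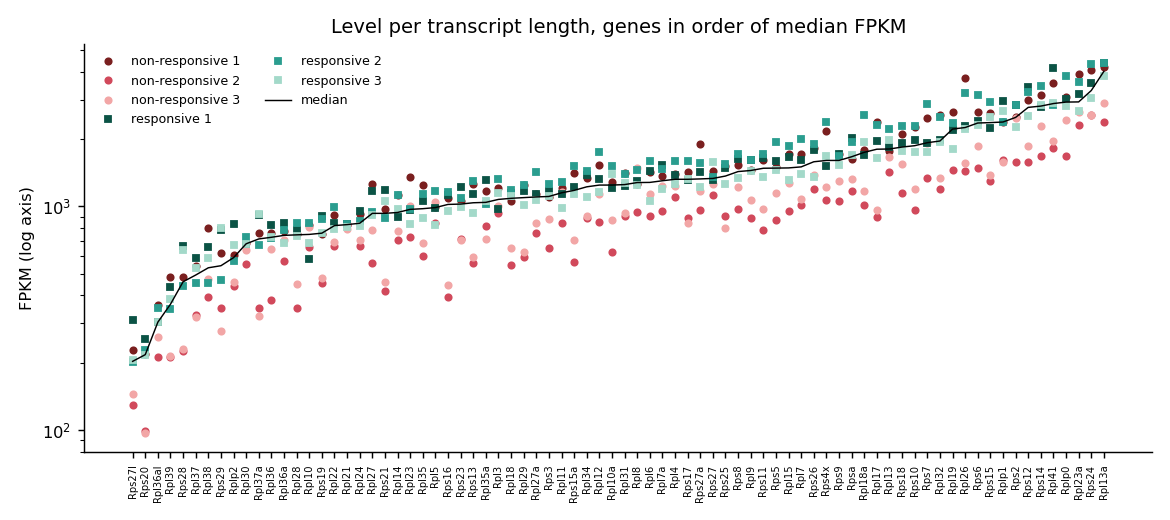
FPKM of the 78 ribosomal protein genes on a log axis, in order of their median, with 1 point per tumour and a line through the medians. The medians run from 203 FPKM for Rps27l to 4016 FPKM for Rpl13a.

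No ribosomal protein gene differed between non-responsive and responsive tumours by edgeR's quasi-likelihood test at an adjusted p of 5%, and neither did any of the 14505 genes tested (0%). The smallest adjusted p was 0.417 among the 78 genes, for Rps28, and 0.350 among all genes. At an unadjusted p of 0.05 in the same edgeR test, 0 of 78 were lower in non-responsive tumours, where 5.79% of all genes were, and 0 were higher, where 6.79% of all genes were. DESeq2, run as an alternative, called 447 genes (2.46%) at an adjusted p of 5%, and again 0 of the ribosomal protein genes. In direction the genes leaned 1 way: 76 of 78 had a log2 difference (non-responsive minus responsive) below 0, against 49% of all genes. The median was -0.37, within a range from -0.90 for Rps28 to 0.13 for Rpl23, and the median over all genes was 0.01. Small-subunit genes had a median of -0.46 and large-subunit genes a median of -0.33. The median standard error was 0.38 for the ribosomal protein genes, as large as their median difference, and 0.32 for all genes. The genes share 6 libraries, so their common direction is not 78 independent observations.

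Gene by gene, the groups overlapped everywhere. In 0 of 78 genes did all 3 non-responsive tumours lie below all 3 responsive ones, where 8.08% of all genes did, and in 0 did they all lie above, where 9.58% did. Tumour 2 lay below all 3 responsive tumours in 78 of 78 genes, where 33% of all genes did, and tumour 3 in 69 of 78, where 34% did. The 9 genes in which tumour 3 reached the responsive range were Rpl5, Rpl6, Rpl8, Rpl10, Rpl11, Rpl19, Rpl23, Rps2 and Rps7, named after their values were seen. Tumour 1 lay above all 3 responsive tumours in 31 genes, where 27% of all genes did, and below them in 0, so in the 69 genes with tumours 2 and 3 both low the groups overlapped through tumour 1 alone.

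Taking the responsive mean of each gene as 100%, the median gene stood at 112% in non-responsive tumour 1 (91.7 to 162%), 51.3% in tumour 2 (31.4 to 82.7%) and 62.5% in tumour 3 (34.9 to 102%). The low end in tumour 2 was Rps16, a small-subunit protein, and the high end Rpl21, of the large subunit; in tumour 3 the high end was Rpl10. Tumour 2 was the lowest of the 6 tumours for 72 genes and tumour 3 for 6. As log2 deviations from the responsive mean, the medians were 0.18, -0.94 and -0.66 in non-responsive tumours 1, 2 and 3, and 0.05, 0.18 and -0.21 in the responsive tumours. The SD of these deviations across genes was 0.17, 0.29 and 0.35 in non-responsive tumours 1, 2 and 3, and 0.12 to 0.18 in the responsive tumours. Each responsive tumour is part of the mean it is set against, which narrows its SD. The SDs of the groups are thus not directly comparable. In bulk tissue, fewer cells of a type and less RNA per cell cannot be told apart.

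**Figure D3:**
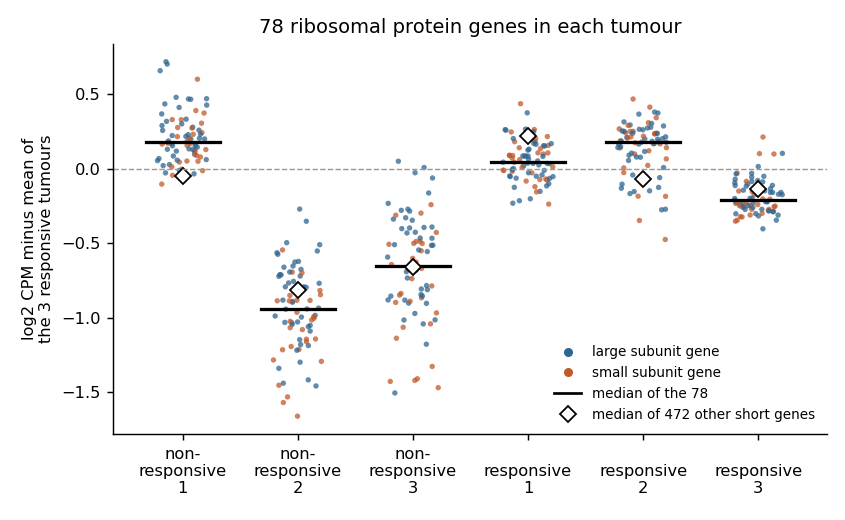
Deviation of each of the 78 ribosomal protein genes from its mean in the 3 responsive tumours (log2 CPM), by tumour, with the median as a line and the median of 472 other short genes as a diamond. The medians of non-responsive tumours 2 and 3 (-0.94 and -0.66) lie apart from the other 4 tumours (-0.21 to 0.18).

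Rps28, a small-subunit protein near the mRNA exit, lies at chr17:33819027-33824562 (mm10). It was measured at 209.7, 75.9 and 81.4 CPM in non-responsive tumours 1, 2 and 3, and at 267, 177 and 242 CPM in the responsive tumours. Tumours 2 and 3 were below every responsive tumour and tumour 1 was between them. The difference was -0.90 ± 0.43 (log2, SE), with a p of 0.0718 and an adjusted p of 0.417 by edgeR, the smallest p of the 78 genes. Rpl37a, a zinc-finger protein of the large subunit at chr1:72711290-72713813, was at 482, 172 and 167 CPM against 532, 392 and 508 CPM, again with tumour 1 inside the responsive range. Its difference was -0.80 ± 0.45, with an adjusted p of 0.463 by edgeR.

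Rps21, a small-subunit protein with the TOP tract shown above, at chr2:180257377-180258445, was at 434, 145 and 167 CPM in the non-responsive group and 487, 369 and 411 CPM in the responsive tumours. Its difference was -0.76 ± 0.44, with an adjusted p of 0.471 by edgeR. Rps29, a zinc-binding protein of the small subunit head at chr12:69157722-69159186, was at 274, 120.4 and 100.03 CPM against 319, 191 and 308 CPM. In both genes tumours 2 and 3 were lowest, and Rps29 differed by -0.73 ± 0.42 with an adjusted p of 0.474 by edgeR. Rps19, which is mutated in some patients with Diamond-Blackfan anaemia and lies at chr7:24884371-24889806, was at 629.6, 258 and 287 CPM against 679, 676 and 548 CPM. It differed by -0.70 ± 0.38, with an adjusted p of 0.459 by edgeR. Rps20, another small-subunit protein, at chr4:3831334-3835665, was at 916, 323 and 331 CPM against 987, 889 and 791 CPM and differed by -0.76 ± 0.45, with an adjusted p of 0.475 by edgeR.

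Rpl23 and Rpl10 were the 2 genes above 0. Rpl23, a large-subunit protein that can bind Mdm2, lies at chr11:97777527-97782437 and was at 1627, 682 and 981 CPM in the non-responsive group and 1061, 1083 and 870.5 CPM in the responsive tumours. Tumour 1 was the highest and tumour 2 the lowest of all 6, and the difference was 0.13 ± 0.37, with an adjusted p of 0.889 by edgeR. Rpl10, a late-joining large-subunit protein needed for subunit joining, lies at chrX:74270812-74273135. It was at 659, 399.8 and 529 CPM against 439.9, 630.2 and 480.2 CPM, and differed by 0.03 ± 0.28, with an adjusted p of 0.963 by edgeR. The direction of Rpl10 is uncertain because the table also holds a near-identical pseudogene, Rpl10-ps3, with 210% of the mean count of Rpl10. Rpl10-ps3 had a difference of -0.44 ± 0.42, and with its counts added Rpl10 came to -0.28. The other pseudogenes listed held at most 0.546% of their parent's count, and the sources used here do not give how the authors assigned reads shared by such copies.

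**Figure D4:**
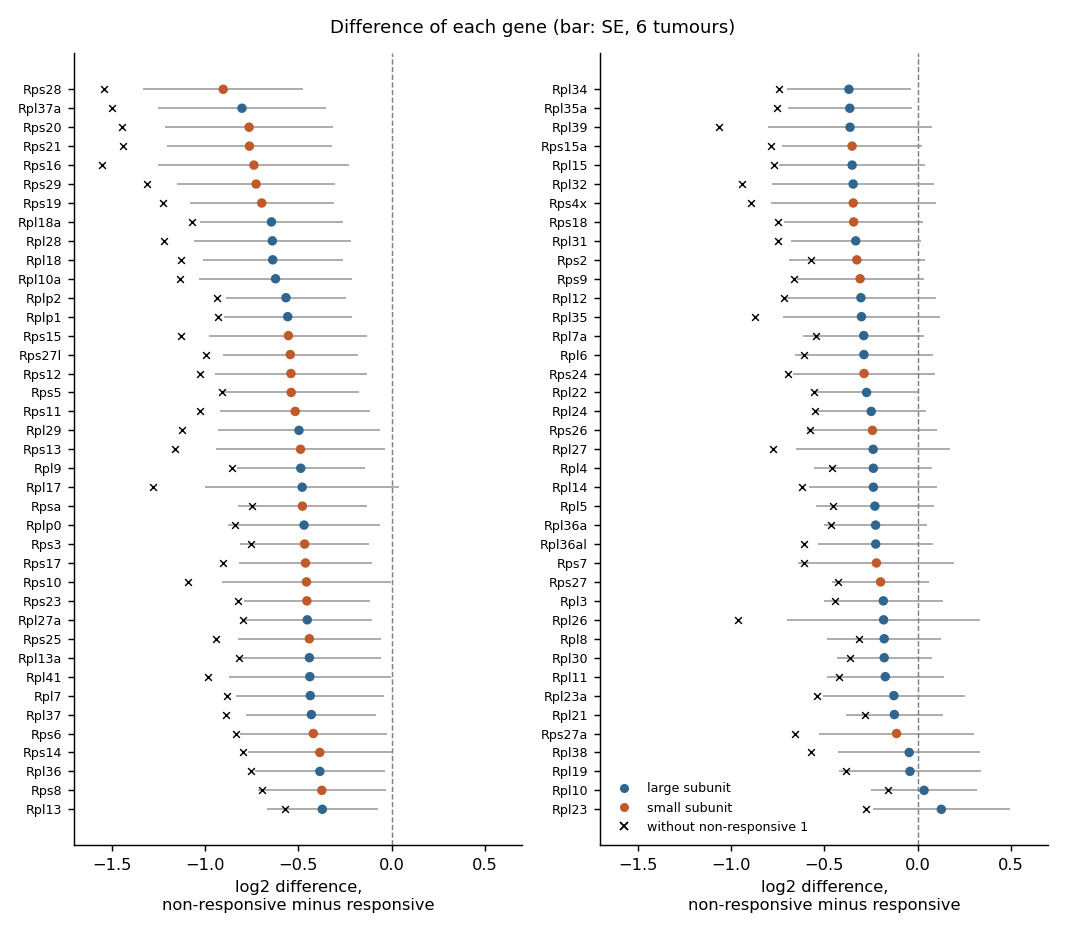
Log2 difference between non-responsive and responsive tumours for each of the 78 genes, in order, with a bar of 1 standard error (6 tumours). Crosses give the difference without non-responsive tumour 1. With all 6 tumours 76 genes lie below 0, from -0.90 for Rps28 to 0.13 for Rpl23, and without tumour 1 all 78 do.

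The stalk proteins recruit the GTPase translation factors to the ribosome. Rplp0, its base, at chr5:115559467-115563727, was at 4728, 2012 and 3031 CPM in the non-responsive tumours and 4297, 5462 and 3773 CPM in the responsive tumours. Rplp1 was at 1351, 709.7 and 729 CPM against 1547, 1249 and 1309.7 CPM, and Rplp2 at 463, 237 and 259.5 CPM against 564, 424 and 433 CPM. In these genes tumours 2 and 3 lay below and tumour 1 within the responsive range. The differences were -0.47 ± 0.41, -0.56 ± 0.34 and -0.57 ± 0.32, with adjusted p of 0.605, 0.489 and 0.465 by edgeR.

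Among proteins with roles in signalling, Rps6, the small-subunit protein phosphorylated by S6 kinase downstream of mTOR (chr4:86854660-86857412), was at 2649, 1151 and 1516 CPM against 2221, 2899.7 and 1993 CPM. It differed by -0.42 ± 0.39, with an adjusted p of 0.63 by edgeR. Rpsa, known also as the laminin receptor precursor, was at 3177, 1777 and 2159 CPM against 3441, 3729 and 2742 CPM and differed by -0.48 ± 0.35, with an adjusted p of 0.54 by edgeR. Both followed the order of the family. Rpl5 and Rpl11, which as a complex with 5S ribosomal RNA can bind Mdm2 and stabilise p53, were closer to the responsive range. Rpl5 was at 1531, 896 and 1142 CPM against 1415, 1640.4 and 1129 CPM (-0.23 ± 0.32), and Rpl11 at 976, 515 and 744 CPM against 859, 966 and 697 CPM (-0.17 ± 0.31). In both, tumour 3 was above responsive tumour 3, and the adjusted p was 0.748 and 0.813 by edgeR.

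Rpl3, beside the peptidyl transferase centre, was at 1852, 1108 and 1241 CPM in the non-responsive group and 1371, 1879.6 and 1522 CPM in the responsive tumours, and differed by -0.18 ± 0.32 (adjusted p of 0.802 by edgeR). The X-linked Rps4x was at 2399.7, 919.6 and 1098 CPM against 1553, 2438 and 1622 CPM and differed by -0.35 ± 0.44 (adjusted p of 0.728 by edgeR). Rpl39, a short basic protein lining the exit tunnel, was at 336, 114 and 120.4 CPM against 280.0, 222 and 232 CPM and differed by -0.36 ± 0.44 (adjusted p of 0.71 by edgeR). In each of these genes tumours 2 and 3 were lowest and tumour 1 was at or near the top.

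The genes of highest FPKM held the same order. Rpl13a was at 2914, 1302 and 1779 CPM in the non-responsive group and 2751, 3166 and 2221 CPM in the responsive tumours, and differed by -0.44 ± 0.38. Rps24 was at 2381, 1186 and 1234 CPM against 1939.5, 2356 and 1566 CPM (-0.29 ± 0.38), and Rpl23a at 2498, 1141 and 1369 CPM against 1870.0, 2126 and 1477 CPM (-0.13 ± 0.38). In Rps24 and Rpl23a tumour 1 was above all responsive tumours, and the adjusted p was 0.606, 0.736 and 0.891 for the 3 genes by edgeR. As a description over the 78 genes, which share all libraries, Spearman's rho of the difference was 0.05 with median FPKM and 0.11 with implied length.

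Paralog pairs were compared by their FPKM, as the share of the paralog in the pair. Rps27l, a p53-induced form of Rps27, made up 13.7%, 10.3% and 10.3% of the pair in the non-responsive group and 19.1%, 12.9% and 11.5% in the responsive tumours. The group means were 11.4% ± 2.00 and 14.5% ± 4.04 (SD, n = 3), and the groups overlapped. By itself Rps27l was at 129.6, 56.8 and 66.6 CPM against 162, 106 and 101 CPM (-0.54 ± 0.36, adjusted p of 0.514 by edgeR), and Rps27 at 562, 342 and 402 CPM against 475, 490.2 and 534 CPM (-0.20 ± 0.26, adjusted p of 0.734 by edgeR). Rpl36al made up 31.7%, 27.2% and 27.1% of its pair with Rpl36a against 26.4%, 31.0% and 30.6%, with means of 28.7% ± 2.65 and 29.3% ± 2.52 (SD, n = 3). That share overlapped between the groups as well. Rpl36al was at 217, 99.4 and 128 CPM against 168, 194 and 158 CPM (-0.23 ± 0.31, adjusted p of 0.746 by edgeR), and Rpl36a at 427, 242 and 314 CPM against 427, 396 and 328 CPM (-0.23 ± 0.27, adjusted p of 0.711 by edgeR).
Rpl22, which outside the ribosome binds the mRNA of its paralog Rpl22l1, was at 508, 304 and 316 CPM against 444, 519 and 401 CPM and differed by -0.27 ± 0.28 (adjusted p of 0.659 by edgeR). Rpl22l1 is not matched by the symbol rule. It made up 22.1%, 10.3% and 9.23% of this pair in the non-responsive group and 17.3%, 14.3% and 16.7% in the responsive tumours. Tumour 1 was thus above and tumours 2 and 3 below all responsive tumours in the balance of this pair.

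Without non-responsive tumour 1, 58 of the 78 genes (27 small-subunit, 31 large-subunit) were lower in the other 2 non-responsive tumours at an unadjusted p of 0.05 by edgeR, where 11% of all genes were. The call at an adjusted p of 5% was still made for 0 of 78, the smallest adjusted p being 0.107. The median difference was -0.79, from -1.55 for Rps16 to -0.16 for Rpl10, and 78 of 78 genes lay below 0. Rps20 then differed by -1.45 ± 0.21, Rpl37a by -1.50 ± 0.22, Rps21 by -1.44 ± 0.22 and Rps28 by -1.54 ± 0.24. Without non-responsive tumour 2 the median was -0.14, and without tumour 3 it was -0.26. Leaving out tumour 1 was done after its position was known, so these values describe tumours 2 and 3 and are no separate evidence for a difference between the groups.

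Ribosomal protein transcripts are short, and other short genes had medians on the same side of 0. Among 472 other genes with an implied transcript length of 400 to 800 bases, where 44 of the 78 ribosomal protein genes lie, the median difference was -0.43 and 370 (78.4%) were below 0. The 44 ribosomal protein genes of that length had a median of -0.37. By tumour, the 472 genes deviated from the responsive mean by a median of -0.05, -0.82 and -0.66 in non-responsive tumours 1, 2 and 3, and by 0.22, -0.07 and -0.13 in the responsive tumours. Among 2492 other genes of 800 to 1600 bases the median was -0.24, where the 26 ribosomal protein genes had -0.34, and among 5691 genes over 3200 bases it was 0.20. Up to 400 bases, 6 ribosomal protein genes had a median of -0.56, and the 67 other genes, 58 of them immunoglobulin or T cell receptor segments, a median of 2.19. Rps20, the 1 ribosomal protein gene in the longest class, and Rpsa, at 1600 to 3200 bases, were at -0.76 and -0.48. The 290 other genes with a median of at least 200 FPKM had a median difference of -0.19. With a smooth trend on length removed in each tumour, the median of the ribosomal protein genes was -0.07, the same as that of all genes, and 50 of 78 were below 0. The range was -0.82 to 0.48, and its low end was Rps20, which has the implied length of 3706 bases. These length and level classes were chosen after the values were seen, and the part that transcript length plays in the difference was not tested.

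**Figure D5:**
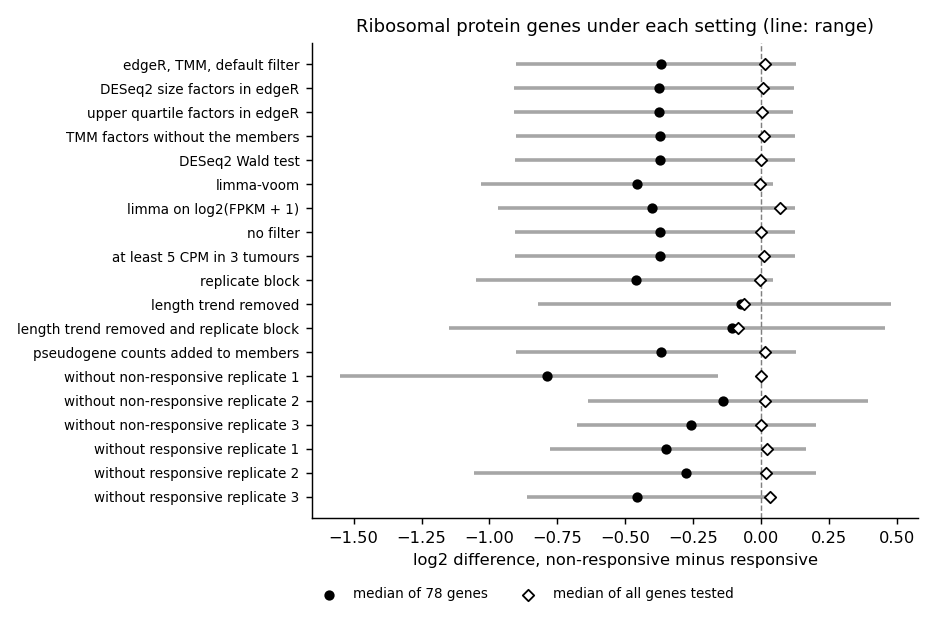
Median log2 difference of the ribosomal protein genes (filled points) and of all genes tested (diamonds) under each way of scaling, testing or leaving out a tumour, with a line from the lowest to the highest gene. The median lies near -0.37 under the other scalings, at -0.79 without non-responsive tumour 1, and at -0.07 with the length trend removed.

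The family was also split by start sequence, as a description. The 13 tested genes that begin with the TOP tract had a median difference of -0.35 and the 45 others with an entry a median of -0.36. The 24 tested genes with CCGGAAG had a median of -0.36, and the 34 without it also -0.36. The medians with and without the other sequences were -0.35 and -0.41 for the run of 7 pyrimidines, -0.37 and -0.30 for GGGCGG, -0.29 and -0.37 for AAGATGG, and -0.34 and -0.36 for TATAAA. Rps21 and Rplp2, with the tract, stood at -0.76 and -0.57, and Rps28, without it at its annotated start, at -0.90. The tract was read only at annotated starts, so a start annotated some bases off would place a gene among the others. A missing match is thus not a missing tract, and the 13 and the 45 cannot be compared as genes with and without one.

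Of the ribosomal genes that the symbol rule leaves out, 8 were tested, 7 were below 0, and their median was -0.48. None had an unadjusted edgeR p of 0.05 or less. The 8 include 1 pseudogene, Rpl9-ps6, with 130, 21 and 17 counts in the non-responsive group and 148, 137 and 185 in the responsive tumours. Fau, the precursor of Rps30, was at 691, 332 and 349.7 CPM in the non-responsive group and 770.0, 695 and 639 CPM in the responsive tumours (-0.62 ± 0.34). Rps3a1, a small-subunit protein, differed by -0.50 ± 0.40. The median deviation of the 8 from the responsive mean was 0.17, -1.11 and -0.95 in non-responsive tumours 1, 2 and 3, the tumour order seen in the family.

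Most genes that build ribosomes had differences on the other side of 0. Of 96 ribosome biogenesis genes tested, 28 were below 0 and 68 above. Of all genes 49% were below 0, and of the other genes over 3200 bases 32.4% were. The median of the list was 0.13, against 0.01 for all genes and 0.20 for the other genes over 3200 bases. The part that transcript length plays in this direction was not tested. In this list 9 were higher, where 6.79% of all genes were, and 1 lower, where 5.79% were, at an unadjusted p of 0.05 by edgeR, and 0 passed after adjustment. Among them, Heatr1, Mphosph10 and Utp20, components of the small-subunit processome, differed by 0.52 ± 0.18, 0.63 ± 0.23 and 0.64 ± 0.24, and Las1l, which takes part in cleaving the internal spacer of the rRNA precursor, by -0.68 ± 0.28. Heatr1 was at 46.6, 53.4 and 62.2 CPM in the non-responsive tumours, all above the responsive tumours at 38.5, 37.9 and 37.1 CPM. This list did not follow the tumour order of the ribosomal proteins, since its median deviation from the responsive mean was 0.08, -0.10 and 0.30 in non-responsive tumours 1, 2 and 3.

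Of 42 translation factors, many of which also have TOP mRNAs, 29 were below 0 and the median was -0.07, with 0 at an unadjusted p of 0.05 in either direction by edgeR. Their median deviations in non-responsive tumours 1, 2 and 3 were 0.17, -0.38 and -0.04, so tumour 3 was not low for them. Of 27 tested regulators in the TOR and MYC list, 1 was higher, where 6.79% of all genes were, and 1 lower, where 5.79% were, at that p. Their median was -0.07. Rps6kb1, the S6 kinase that phosphorylates Rps6, was at 112, 59.3 and 95.7 CPM in the non-responsive tumours, each above the responsive tumours at 50.7, 48.4 and 47.2 CPM. It differed by 0.87 ± 0.26, with an adjusted p of 0.350 by edgeR. Mycl was at 30.7, 26.3 and 17.9 CPM against 21.2, 59.9 and 129 CPM, and differed by -1.49 ± 0.60 with an adjusted p of 0.384 by edgeR. Of 26 p53 targets 15 were below 0, with a median of -0.03 and 0 at an unadjusted edgeR p of 0.05 in either direction. Of 17 ribosome quality control genes 7 were below 0, and 1 was higher at an unadjusted p of 0.05 by edgeR, where 6.79% of all genes were. It was Nemf, which binds stalled large subunits (0.56 ± 0.21).

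Depth and tissue makeup also varied between the tumours. Total counts ranged from 15046180 to 23917398 per tumour, and mitochondrially encoded genes took 3.42%, 6.39% and 8.08% of counts in non-responsive tumours 1, 2 and 3 and 4.77 to 5.37% in the responsive tumours. Tumours 2 and 3, the ones with low ribosomal protein mRNA, had the highest summed level of 12 endothelial markers, at 1512 and 1324 CPM, against 451 CPM in tumour 1 and 408 to 605 CPM in the responsive tumours. The 13 fibroblast markers summed to 8413 and 8496 CPM in tumours 2 and 3, against 7374 CPM in tumour 1 and 5137 to 6758 CPM in the responsive tumours. The 18 T cell markers summed to 352 CPM in tumour 2 and 100.1 to 109.6 CPM in the other 5. The 13 basal and squamous markers summed to 31224, 4850.0 and 7492 CPM in the non-responsive group and 5012 to 14456 CPM in the responsive tumours, so tumour 1 was the highest. The 15 cycling cell markers summed to 942, 757 and 977 CPM against 360.5 to 705 CPM, and did not separate tumour 1 from tumours 2 and 3. The 12 stress-response genes summed to 1547, 880.3 and 893 CPM in non-responsive tumours 1, 2 and 3 and to 1281 to 1663 CPM in the responsive tumours, the tumour order of the ribosomal protein genes. The 15 luminal urothelial markers summed to 3005, 1154 and 1346 CPM and to 1829 to 6527 CPM, again with tumours 2 and 3 lowest. By gene, 8 of these 15 were lower at an unadjusted p of 0.05 by edgeR, where 5.79% of all genes were, and 0 after adjustment. Their median was -1.86, and their median deviation was -1.10, -1.57 and -2.13 in non-responsive tumours 1, 2 and 3. The typical luminal gene was thus low in tumour 1 too, where the median ribosomal protein gene was at 0.18. The 11 B and plasma cell markers summed to 2034, 6509 and 1077 CPM and to 506 to 1434 CPM, with tumour 2 the highest. The 14 neutrophil markers summed to 6752 CPM in non-responsive tumour 1 and 445 to 1779 CPM in the other 5. The 10 adipocyte markers summed to 287 to 430 CPM in the non-responsive group and 591 to 9529 CPM in the responsive tumours, the highest in responsive tumour 1. Of the 10, 9 were lower at an unadjusted p of 0.05 by edgeR, where 5.79% of all genes were, with a median of -3.65. The 7 erythroid genes found summed to 13169 CPM in responsive tumour 1 and 226 to 1965 CPM in the other 5. The 17 macrophage markers summed to 2540.2, 3999 and 2549.8 CPM against 1366 to 3165 CPM, and the 9 smooth muscle markers to 4330.1, 4036 and 1786 CPM against 1416 to 7408 CPM, and neither sum followed the order of the ribosomal protein genes. At unadjusted edgeR p of 0.05, 6 of 18 T cell and 5 of 12 endothelial markers were higher, against 6.79% of all genes. So were 5 of 13 fibroblast, 4 of 17 macrophage and 3 of 15 cycling cell markers. Basal and squamous markers had 2 of 13 higher, and neutrophil markers 1 of 11 tested. Of the fibroblast and the basal and squamous markers, 1 each was lower. The B and plasma cell, smooth muscle, erythroid and stress-response lists had 0 in either direction. Each gene found from these 13 marker lists was detected in at least 1 tumour. The part of these cells, of the stress-response genes and of the mitochondrial share in the level of the ribosomal protein genes was not tested. Among the luminal and basal markers, the uroplakin Upk2 was at 7.87 to 199 CPM, the basal keratin Krt5 at 1088 to 8266 CPM and the basal factor Trp63 at 117 to 276 CPM over the 6 tumours. These levels are a description and do not by themselves settle the tumour type.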

How the data were processed

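Per the labels' protocols, RNA was isolated with TRIZOL and turned into libraries with Illumina's TruSeq kit, and the genome build was mm10, per the submitters' processing notes. Aligner, counter, strand setting and gene annotation were not given in the sources used here, so reads of overlapping or antisense genes may be mixed. Per the file headers, the authors deposited for each gene an estimated count, which is not scaled between tumours and was fractional for 8.19 to 9.99% of genes in a tumour. Per the same headers, the authors also deposited FPKM, a count per length and depth, which was used for levels between genes, paralog shares and 1 alternative. Counts were rounded and tested on the whole table with edgeR 4.0.16 in R 4.3.3 (TMM, default expression filter, robust quasi-likelihood test, two-sided, Benjamini-Hochberg over 14505 genes, threshold 5%), non-responsive minus responsive, 3 against 3. Alternatives used limma 3.58.1, with a pseudocount of 1 and a minimum of 1 for FPKM, DESeq2 1.42.0, other scalings and filters, and each tumour left out. CPM are counts scaled by the TMM-normalised library total, and the implied transcript length is the one at which a gene's count gives its FPKM. Gene coordinates are from the mouse GENCODE annotation of GRCm38 (mm10) and count from 1.

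The genes named are a set list of well-known members and paralogs, up to 6 tested members per direction of smallest p, the 4 of highest and 4 of lowest median FPKM, every member below the filter and, per pathway list, up to 3 genes per direction of smallest p. The symbol rule reads no values, but the choice of this gene family, the lists and the other rules were made with earlier results of these data known. Every pair of libraries differed by more than sampling noise, with a chi-square divided by its degrees of freedom of at least 75.7.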

Additional observations from a re-analysis of the deposited data

How the results depend on the processing

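With 3 tumours a group, the values depend on single tumours and on the length trend. The median difference, -0.37 with all tumours, was -0.79 without non-responsive tumour 1 and -0.14 without non-responsive tumour 2. With the length trend removed it was -0.07. Depth limits only Rpl3l, Rpl39l and Rpl10l. The count of ribosomal protein genes past the adjusted threshold was 0 under every alternative run. The count lower at an unadjusted p of 0.05, 0 of 78 by edgeR, was 1 by DESeq2, 1 by limma-voom, 5 by limma on log2(FPKM + 1) and 4 with the replicate number as a block. In the same order, 6.43%, 5.79%, 5.44% and 5.03% of all genes were lower in these runs, so the counts were not above the share over all genes by more than about 1 gene. The count of ribosomal protein genes ranged from 0 to 58 when each tumour was left out. It was 58 without non-responsive tumour 1, where 11% of all genes were lower. The median difference then ranged from -0.79 to -0.14, and the difference in the share of counts, -1.88 percentage points, from -2.995 (without non-responsive tumour 1) to -1.04 (without tumour 2). Residual correlations of same-numbered tumours 1, 2 and 3 were -0.11, -0.09 and -0.02 over all genes. Over the ribosomal protein genes they were 0.20, -0.16 and -0.27. With 3 tumours a group, these values cannot decide whether the numbers pair the tumours. With the replicate number as a block the median was -0.46. With the length trend removed, Rpl11 turned to 0.17, Rpl22 to 0.18, Rpl36al to 0.19, Rps27 to 0.39, Rpl36a to 0.26, Rps24 to 0.13 and Rpl23a to 0.27. With that and the block they stood at 0.17, 0.20, 0.19, 0.41, 0.26, 0.14 and 0.27. With pseudogene counts added, Rpl10 turned to -0.28. With each tumour left out, Rpl10 ranged from -0.16 to 0.22, Rpl23 from -0.28 to 0.39, Rpl11 from -0.42 to 0.050, Rpl36al from -0.61 to 0.012 and Rpl23a from -0.54 to 0.10. The cause of the change with the length trend was not tested. Of the named genes' other values, 297 under the settings and 149 with a tumour left out kept their direction. Since no ribosomal protein gene passed the adjusted threshold in any run, these counts describe direction only.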
